A study of Homo sapiens with 18 samples.

Results

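AP-2γ was compared with AP-2α in bladder cancer cells that had also received WWOX. The comparison sets the 3 libraries labelled WC against the 3 labelled WA, 1 of each from the bladder cancer lines CAL-29, HT-1376 and RT-112, which makes 6 of the 18 CAGE-seq libraries of the series. Both variants carried WWOX, introduced first with a GFP and puromycin-resistance lentivirus under a CMV promoter and selected on puromycin. The WA variant then received AP-2α (TFAP2A) and the WC variant AP-2γ (TFAP2C), from a lentivirus with a CMV promoter and neomycin resistance, followed by 3 weeks of selection on G418. WK cells carried WWOX and a blank second vector, and KK, KA and KC cells carried a blank first vector followed by a blank, AP-2α or AP-2γ vector. Each library came from a stable, antibiotic-selected population, and there was 1 library per variant and line, so the replicates of the comparison are 3 different cell lines.

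AP-2α and AP-2γ are closely related transcription factors that bind GC-rich promoter elements as dimers and set the balance between proliferation and differentiation in squamous and urothelial epithelium. WWOX is a tumour suppressor with WW domains through which it binds proline-rich partners, AP-2 factors among them, and can hold them in the cytoplasm. CAGE (cap analysis of gene expression) sequences the capped 5′ ends of transcripts, so each gene's value is the number of reads at its start sites scaled to the reads of the library (CPM).

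A gene was kept when it had at least 5 CPM in at least 1 of the 6 libraries, which left 12393 of 16575 genes. The change of a gene is the difference of log2(CPM + 0.5) between WC and WA of the same line, so a positive change is higher in WC and a change of 1 is close to 2-fold for genes well above 0.5 CPM. The 6 libraries held 14697809 to 17292683 reads on genes, and 3 reads, the limit taken for a gene without reads, are worth 0.164 to 0.192 CPM. Genes that mark each line against the others in the KK libraries were present in the WA and WC libraries of the same line (9 of 9 for RT-112, 43 and 45 of 47 for HT-1376, 59 and 60 of 68 for CAL-29), at a median of 37.3% of the KK level in CAL-29 WC and of 66.2% to 97.7% in the others. By the same measure 12 and 13 of the 68 CAL-29 genes were also present in HT-1376 WA and WC, and 0 in RT-112. The median over the 68 was 1.24% and 2.2% of the CAL-29 KK level in HT-1376 WA and WC. Of the RT-112 and HT-1376 genes at most 1 was present in WA or WC of another line. The library labelled CAL-29 KC held 46 of the 47 HT-1376 genes and entered only the alternative fit over all 18 libraries. Of markers of cells that a pure cancer line should lack, 7 of 8 endothelial genes were not listed and the remaining one summed to 0.17 to 0.71 CPM, 2 of 10 leukocyte genes were listed, at 6.45 to 24.1 CPM, and 5 of 9 fibroblast genes at 11.3 to 59.6 CPM.

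The transduced genes were read first, since they check the labels. TFAP2C (chr20:56629306-56639283, hg38, plus strand) measured 179.9 and 143 CPM in RT-112, 98.0 and 163 CPM in HT-1376 and 79.8 and 339 CPM in CAL-29, in WA and WC respectively. It was higher in WC in HT-1376 and CAL-29 (changes of 0.73 and 2.08) but not in RT-112 (-0.33), where the library labelled RT-112 WA stood 179.9 CPM against 56.2 in RT-112 WK, 58.0 in KK and 49.4 in KA. For TFAP2C the library labelled RT-112 WA thus goes against its label, and results are also given without RT-112. In HT-1376 the WC level was close to that of KK (158 CPM). The WC levels of the 3 lines overlap the WA levels.

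TFAP2A (chr6:10393186-10419659, minus strand) measured 25.3 and 21.2 CPM in RT-112, 69.9 and 72.9 CPM in HT-1376 and 86.7 and 31.7 CPM in CAL-29. The WK levels were 20.3, 76.9 and 61.7 CPM in the same order, so TFAP2A in WA was above WK in CAL-29 and RT-112 and below it in HT-1376. The WC to WA change was -0.25, 0.06 and -1.44 in the 3 lines, and the mean of -0.54 ± 0.31 (SE) did not pass the test. WWOX (chr16:78099400-79212667, plus strand), which both variants should carry, measured 18.9 and 18.4 CPM in RT-112, 19.2 and 23.1 CPM in HT-1376 and 69.3 and 62.4 CPM in CAL-29, against 26.0, 22.4 and 63.7 CPM in the KK libraries without the WWOX vector. WWOX was thus not above the control in any WA library except that of CAL-29, by 69.3 against 63.7 CPM, and in WC only in HT-1376. How reads from the vector's coding sequence were assigned is not given in the sources used here, so a CAGE level may not hold the transgene.

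**Figure D1:**
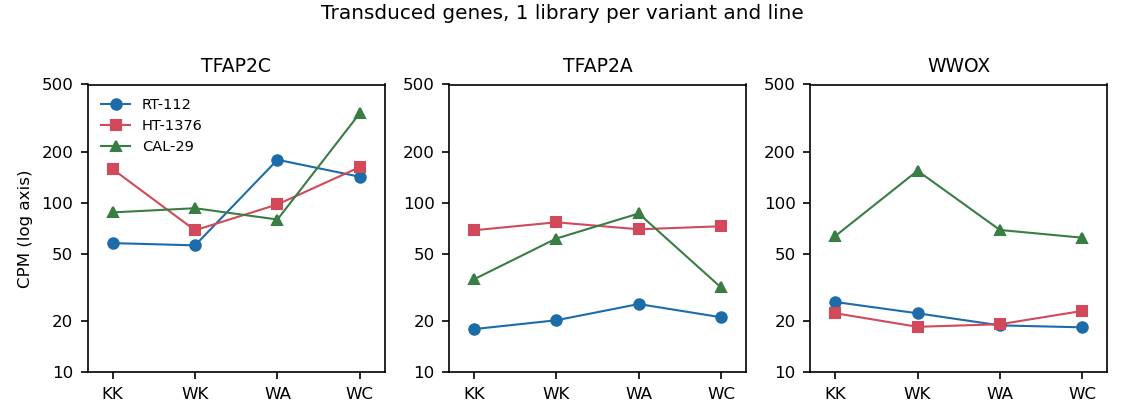
Level of TFAP2C, TFAP2A and WWOX (CPM, log axis) in the KK, WK, WA and WC libraries, 1 point per library, with a line joining the libraries of each cell line. TFAP2C in the library labelled RT-112 WA (179.9 CPM) lies above RT-112 WC (143 CPM), whereas in HT-1376 and CAL-29 WC lies above WA.

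The other measured members of the AP-2 system differed by less than 2-fold between WA and WC in RT-112 and HT-1376. The coactivator genes EP300, CITED2, CITED4 and CREBBP, the AP-2 repressors KCTD1 and KCTD15, and YEATS4 were past the filter, and none passed the test. EP300 was lower in WC in CAL-29 (78.4 and 24.6 CPM), and so were KCTD15 (27.8 and 12.5 CPM) and CREBBP (11.9 and 5.62 CPM), each by more than 2-fold, while in the other lines the changes of these genes lay between -0.38 and 0.42. The microRNA gene MIR1281 lies within EP300 and shares its values. TFAP2B, TFAP2D, TFAP2E and CITED1 did not pass the filter.

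Across all genes no gene passed the test between WC and WA. The test was limma on log2(CPM + 0.5) with the cell line as a block, and the smallest adjusted p was 0.575. An unadjusted p under 0.05 was reached by 902 genes (7.28%), of which 77 were higher (0.621%) and 825 lower (6.66%) in WC. The 11 genes that DESeq2 called on the recovered reads (0.0888% of 12393) were all higher in WC: C15orf48, MSN, SAA1 with the pseudogene RNA5SP334 that shares its values, S100A7, S100A12, H1-1, SPRR2A, DEFB1, UBD and HSD17B1. The limma-voom and edgeR fits on those reads called none, at smallest adjusted p of 0.269 and 0.751. Among the genes DESeq2 called, H1-1 stood at 0 and 0.06 CPM in RT-112 and 0 and 0.11 CPM in HT-1376. Its call thus rests on CAL-29 (28.1 and 107.5 CPM in WA and WC). SPRR2A (0 and 0.24 CPM) and HSD17B1 (0.11 and 0.66 CPM) were near the floor in RT-112, and UBD was nearly level in CAL-29 (8.95 and 9.73 CPM).

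The lines differed in how far WC stood from WA. RT-112 had 40 genes higher (0.323% of 12393) and 85 lower (0.686%) by more than 2-fold. HT-1376 had 468 higher (3.78%) and 643 lower (5.19%), and CAL-29 had 538 higher (4.34%) and 3962 lower (32.0%). Pearson's r between WC and WA over genes was highest in RT-112 (0.992), followed by HT-1376 (0.975) and CAL-29 (0.945). The median change over all genes was -0.07 for RT-112, -0.16 for HT-1376 and -0.55 for CAL-29. TMM scaling, which sets the bulk of genes level between libraries, gave factors of 1.60 for CAL-29 WA and 1.07 for CAL-29 WC, against 1.05 and 0.94 for HT-1376 and 0.79 and 0.76 for RT-112. After it the medians lay at -0.01 in each line. RT-112 then had 69 genes higher (0.557%) and 78 lower (0.629%), HT-1376 had 595 (4.8%) and 389 (3.14%), and CAL-29 had 1408 (11.4%) and 1844 (14.9%). The median of the mean change likewise went from -0.26 to -0.01, so a deposited change is to be read against these medians.

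**Figure D2:**
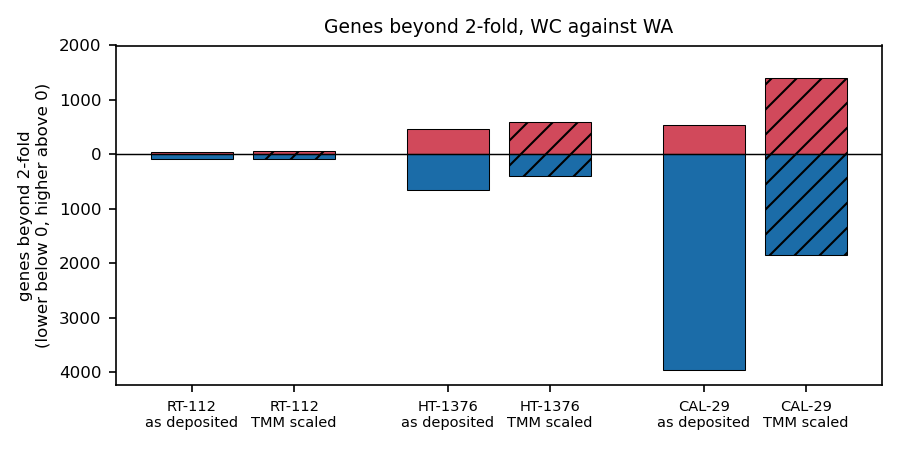
Number of genes higher (red) and lower (blue) in WC than in WA by more than 2-fold in each cell line, as deposited (plain bars) and after TMM scaling (hatched bars). CAL-29 has 3962 genes lower as deposited and 1844 after scaling, and RT-112 has the fewest in both directions.

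The changes of 1 line were weakly related to those of another. Over the 12393 genes Pearson's r between the changes of RT-112 and HT-1376 was 0.148, between RT-112 and CAL-29 0.007, and between HT-1376 and CAL-29 0.135, given as a description since genes share their libraries. Higher in WC in all 3 lines were 618 genes (4.99%), and lower in all 3 were 3807 (30.7%). After TMM scaling these were 1828 (14.8%) and 2054 (16.6%). That scaling sets the medians level by design, so the source of the deposited excess of lower genes was not tested.

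A single gene, S100A7, was higher in WC by more than 2-fold in every line (0.00807% of genes), and 4 were lower by that much, THBD, AKR1C3, ASB3 and NRDE2 (0.0323%). After TMM scaling S100A7 was joined by C15orf48, HSD17B1, MSN, SAA1 and RNA5SP334 (0.0484%), and THBD and AKR1C3 were the genes lower (0.0161%). In RT-112 HSD17B1 stood at 0.11 and 0.66 CPM in WA and WC, the first under the limit of 3 reads. MSN stood at 0.34 and 1.09 CPM there, so the size of both changes in that line is uncertain. S100A7 encodes psoriasin, an antimicrobial S100 protein of squamous epithelium, at chr1:153457744-153460651 on the minus strand. It measured 2.74 and 7.72 CPM in RT-112, 268 and 722 CPM in HT-1376 and 200.01 and 1142 CPM in CAL-29. WC exceeded WA in each line, from a low level in RT-112. The WK level was 3.27, 785 and 42.4 CPM in the same order, which is close to WC in HT-1376 and below both variants in CAL-29. The changes of 1.34, 1.43 and 2.51 gave a mean of 1.76 ± 0.27 (SE) and a limma adjusted p of 0.58. The near-identical copy S100A7A had at most 5.97 CPM in these libraries, so how far the pair share reads is uncertain but small in number.

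THBD, thrombomodulin, which binds thrombin at the surface of endothelial and urothelial cells, was lower in WC in each line (chr20:23045633-23049672, minus strand). It measured 43.2 and 18.8 CPM in RT-112, 88.6 and 38.2 CPM in HT-1376 and 102 and 31.0 CPM in CAL-29, with changes of -1.18, -1.20 and -1.71 and a mean of -1.36 ± 0.23 (SE). The WC levels of the 3 lines lay below all WA levels, while WK of CAL-29 held 224 CPM, above both variants of that line. AKR1C3, an aldo-keto reductase that acts on steroids and prostaglandins and answers to NRF2 (chr10:5035354-5107686, plus strand), measured 16.2 and 7.17 CPM in RT-112, 21.7 and 8.93 CPM in HT-1376 and 35.7 and 5.17 CPM in CAL-29. Its changes were -1.12, -1.23 and -2.68, with a mean of -1.68 ± 0.38 (SE), and how reads were split with its near-identical AKR1C paralogs is uncertain. ASB3 and NRDE2 had too few reads for the rule that named genes, and the limma adjusted p of all 4 of these genes was 0.58.

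The further genes with the largest change in the same direction in all 3 lines, both as deposited and after TMM scaling, were the following. SAA1, serum amyloid A, measured 10.5 and 21.5 CPM in RT-112, 18.8 and 77.1 CPM in HT-1376 and 8.89 and 42.1 CPM in CAL-29. In WC it stood above WK in HT-1376 and CAL-29 and near it in RT-112, at WK levels of 22.4, 37.5 and 19.8 CPM. DEFB1, the epithelial β-defensin, measured 237 and 360.5 CPM in RT-112, 3.96 and 57.1 CPM in HT-1376 and 27.2 and 158 CPM in CAL-29. The largest of its changes was that of HT-1376, 3.69, and its mean was 2.27 ± 0.50 (SE). S100A12, another antimicrobial S100 gene, measured 3.97 and 6.45 CPM in RT-112, 5.30 and 21.3 CPM in HT-1376 and 3.16 and 24.2 CPM in CAL-29. C15orf48, whose product takes the place of a subunit in cytochrome c oxidase under inflammatory signals, measured 52.3 and 114 CPM in RT-112, 961 and 1976 CPM in HT-1376 and 169 and 233 CPM in CAL-29. Its WK level was 140, 1686 and 91.6 CPM in the same order, so in RT-112 WC lay below WK. The shared direction of these genes is how they were chosen and no further result.

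The other genes higher in WC in 3 of 3 lines were CKB, the brain-type creatine kinase, PYCARD, the adaptor of the inflammasome, FXYD3, a regulator of the sodium pump, CLTB, a clathrin light chain, HES2, SELENOW, C1QTNF6, RASA4 and the mitochondrial pseudogene MTCYBP16. CKB measured 115 and 158 CPM in RT-112, 23.3 and 63.6 CPM in HT-1376 and 50.2 and 153 CPM in CAL-29, a mean change of 1.16 ± 0.27 (SE). The WK level of CKB was 147, 55.1 and 188 CPM in the same order, nearer to WC than to WA in each line. The same held for C1QTNF6, at WK levels of 118, 87.8 and 49.2 CPM. The mean changes of PYCARD, FXYD3, C1QTNF6 and CLTB were 0.51, 0.49, 0.63 and 0.70. RASA4 has near-identical copies, and reads on MTCYBP16 could come from the mitochondrial genome, so both are uncertain.

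Among the genes lower in WC in 3 of 3 lines by the same rule, ALDH18A1, the first enzyme of proline synthesis, measured 14.8 and 8.02 CPM in RT-112, 18.9 and 7.67 CPM in HT-1376 and 57.2 and 24.0 CPM in CAL-29. STT3A, the catalytic subunit of the oligosaccharyltransferase that glycosylates proteins entering the endoplasmic reticulum, measured 48.2 and 27.7 CPM in RT-112, 227 and 126 CPM in HT-1376 and 218 and 104 CPM in CAL-29. STRAP, a WD-repeat protein of RNA and kinase complexes, measured 24.3 and 13.6 CPM in RT-112, 30.3 and 15.1 CPM in HT-1376 and 137 and 75.5 CPM in CAL-29. For these 3 genes WK lay near the WC level in HT-1376 and CAL-29. The list went on with EEF1A1 and its pseudogene EEF1A1P5, HNRNPA1, NUP43, LIN7C, PNN, CWC25, GTPBP4 and the small nucleolar RNA SNORD28. EEF1A1 and EEF1A1P5 share near-identical sequence, and the 2 mean changes of -1.18 and -1.68 cannot be told apart.

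**Figure D3:**
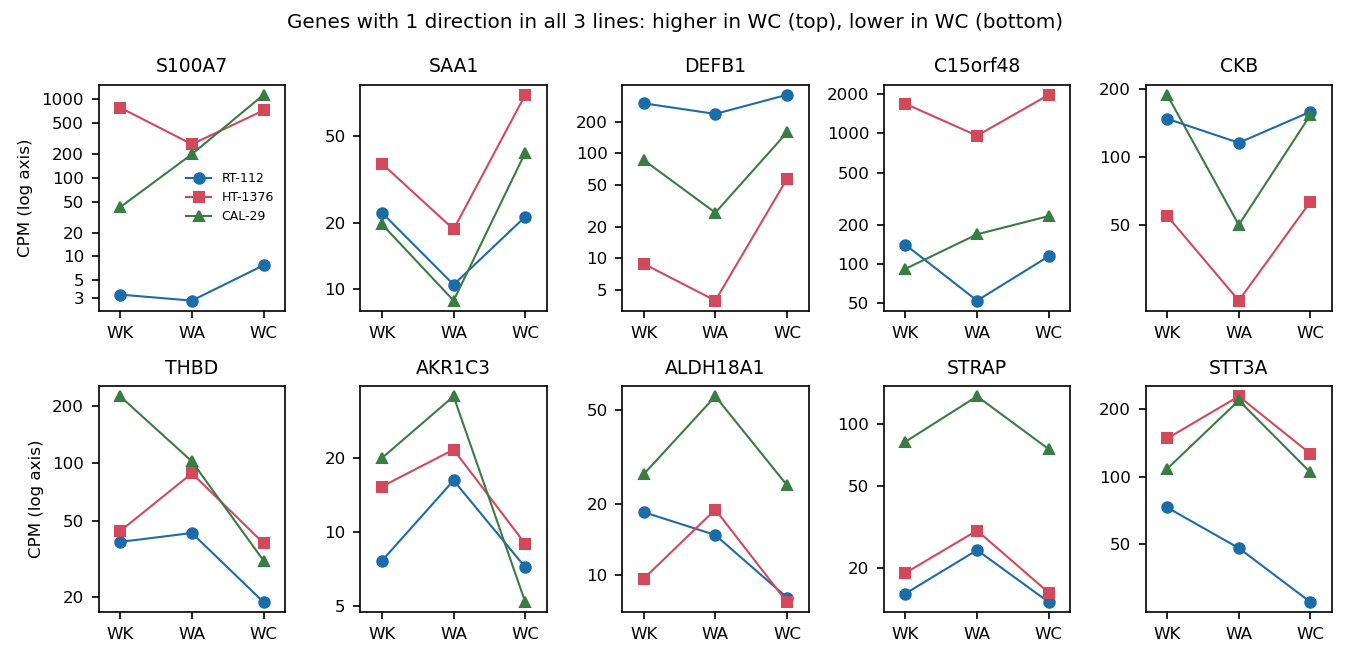
Level (CPM, log axis) of 10 genes in WK, WA and WC of each line, 1 point per library. In every panel of the upper row the WC point lies above the WA point of the same line (S100A7, SAA1, DEFB1, C15orf48, CKB), and in every panel of the lower row below it (THBD, AKR1C3, ALDH18A1, STRAP, STT3A).

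The sequences before the start sites of these genes are shown because AP-2 factors bind GCCNNNGGC, a palindrome that reads the same on both strands. A RefSeq promoter entry (GRCh38.p14) existed for 18 of the 30 genes named for their consistent change, and the 250 bases before the start held the motif in 4 of 9 of those higher and in 1 of 9 of those lower in WC. Over all genes past the filter the share was 28.36% (2723 of 9602), and over all RefSeq promoters 19.67% (5371 of 27305). The larger sets stood near the background as well, at 28.07% of genes higher and 25.75% of genes lower in all 3 lines. A match is a description of the letters and not a binding site. The promoters of 4 of the 5 matching genes and that of AKR1C3, without a match, follow in lower case with the motif in capitals, 5′ to 3′ on the strand of the gene. They run from 250 bases before the RefSeq start up to the base before it: S100A7 (chr1:153460652-153460901, minus strand, motif starting 70 bases before the start), HES2 (chr1:6419920-6420169, minus strand, 18 bases before), PYCARD (chr16:31202761-31203010, minus strand, 142 bases before), SELENOW (chr19:47778453-47778702, plus strand, 136 bases before) and AKR1C3 (chr10:5048531-5048780, plus strand).
S100A7: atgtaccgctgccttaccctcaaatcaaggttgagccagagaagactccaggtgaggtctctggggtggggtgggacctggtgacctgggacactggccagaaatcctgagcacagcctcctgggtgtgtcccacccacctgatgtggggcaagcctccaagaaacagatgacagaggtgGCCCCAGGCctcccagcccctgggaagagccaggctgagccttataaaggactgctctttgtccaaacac
HES2: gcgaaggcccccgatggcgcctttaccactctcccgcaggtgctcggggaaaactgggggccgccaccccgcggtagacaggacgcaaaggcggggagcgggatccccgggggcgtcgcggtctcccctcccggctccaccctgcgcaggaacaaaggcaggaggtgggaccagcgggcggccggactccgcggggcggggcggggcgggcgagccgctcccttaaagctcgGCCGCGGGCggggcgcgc
PYCARD: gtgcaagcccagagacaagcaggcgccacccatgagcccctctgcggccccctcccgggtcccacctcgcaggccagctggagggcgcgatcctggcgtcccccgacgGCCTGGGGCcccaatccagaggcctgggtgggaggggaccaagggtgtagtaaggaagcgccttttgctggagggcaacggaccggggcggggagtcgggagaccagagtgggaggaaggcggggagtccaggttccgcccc
SELENOW: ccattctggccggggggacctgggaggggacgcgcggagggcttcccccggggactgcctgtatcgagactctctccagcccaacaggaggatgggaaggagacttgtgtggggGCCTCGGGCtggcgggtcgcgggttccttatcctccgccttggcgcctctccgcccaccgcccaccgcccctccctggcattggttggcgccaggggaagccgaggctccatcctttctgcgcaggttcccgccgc
AKR1C3: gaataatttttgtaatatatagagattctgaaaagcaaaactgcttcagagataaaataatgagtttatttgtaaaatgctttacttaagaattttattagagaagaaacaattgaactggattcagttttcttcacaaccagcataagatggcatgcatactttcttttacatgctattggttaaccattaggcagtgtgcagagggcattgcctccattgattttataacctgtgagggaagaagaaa

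With the line whose WA library carries TFAP2C set aside, WC was compared with WA in HT-1376 and CAL-29 alone. In that limma fit 24 genes rose (0.194% of 12393) and 79 fell (0.637%). Of these, 22 of the 24 were higher and 73 of the 79 were lower in both lines, 12 and 35 by more than 2-fold in both. RT-112 stood on the same side for 13 of the 24 and 62 of the 79. TFAP2C itself was among those that rose, by 1.40, which is no independent result since its level is why RT-112 was set aside. With 2 pairs each gene has 1 residual degree of freedom, and the fit borrows its variance from the other genes. Its SE can thus be far smaller than the spread between the 2 lines. HSPA5, for example, changed by -0.60 in HT-1376 and by -4.06 in CAL-29, beside an SE of 0.52. After TMM scaling 7 genes passed, all among the 24, so that none of the 79 did, and after quantile normalization none passed. On the recovered reads limma-voom called 21 higher and 6 lower, DESeq2 30 and 2, and edgeR 9 and 0.

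By list, 2 of 14 cornified envelope genes, 2 of 13 S100 genes and 2 of 22 basal and squamous genes were among those that rose in the fit of HT-1376 and CAL-29, beside 0.194% of all genes. Named after their values were seen, DEFB1 rose by 3.10 ± 0.42 (SE), with an adjusted p of 1.3e-09, SPRR1A, a cornified envelope precursor, by 3.07 ± 0.71 (SE), and PI3, elafin, a protease inhibitor of inflamed epithelium, by 2.06 ± 0.36 (SE). S100A7 rose by 1.97 ± 0.46 (SE) and SAA1 by 2.09 ± 0.44 (SE). MMP9, a gelatinase, measured 43.0 and 51.9 CPM in HT-1376 and 3.16 and 54.7 in CAL-29, so that its change of 2.09 came from CAL-29. FABP5 (fatty acid transport) rose by 1.94 ± 0.37 (SE), and AQP3, UBD, SPRR1B, PHLDA2, BASP1, CKB, H3C3, S100A4 and S100A12 rose too. Of these, CKB, H3C3, S100A12, PHLDA2 and BASP1 rose by more than 2-fold in both lines. Others rested mainly on 1 line, with changes in HT-1376 and CAL-29 of 0.39 and 3.49 for FABP5, 3.68 and 0.11 for UBD and 0.15 and 2.78 for SPRR1B. SPRR1A stood at 0.16 and 23.4 CPM in WA and WC of CAL-29, the first at the limit of 3 reads. The fit also called BCAM and KRT6A, whose lines disagreed, with changes of 3.96 and -0.71 in HT-1376 and of -0.34 and 3.64 in CAL-29. KRT6A and SPRR1B belong to families of near-identical copies, and 3 mitochondrial pseudogenes on the list (MTND4P24, MTCYBP18 and MTND4LP1) are uncertain for that reason.

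Those that fell, as deposited, held FOS, FN1 and many genes of the endoplasmic reticulum. FOS, the AP-1 subunit, measured 5.43 and 3.83 CPM in HT-1376 and 181 and 4.05 CPM in CAL-29, and fell by 2.88 ± 0.58 (SE) on the log2 scale. FN1, fibronectin, measured 75.7 and 28.2 CPM and 421 and 32.2 CPM in these lines and 7.04 and 23.3 CPM in RT-112, the opposite direction. The chaperone HSPA5 (BiP) fell by 2.33 ± 0.52 (SE), SEL1L of the endoplasmic-reticulum degradation complex by 2.40 ± 0.43 (SE), HSP90B1, CANX, DNAJC3, HYOU1, SEC63, SEC24D, LMAN1 and CALU of the secretory pathway followed, and so did AGR2, ANXA1 and THBD. By list, 12 of the 35 unfolded protein and amino acid response genes fell, 4 of 29 NRF2 genes and 3 of 18 aminoacyl-tRNA synthetases, beside 0.637% of all genes. For 6 of the 79 (KLHDC7B, NUPR1, HERPUD1, CRELD2, DUSP1 and ERP44) WC was not below WA in HT-1376, so those falls rest on CAL-29. Other falls came mainly from CAL-29 as well. After TMM scaling HYOU1 changed by -0.04 in HT-1376 and -2.52 in CAL-29, DNAJC3 by -0.08 and -3.20, and HSP90B1 by -0.29 and -3.06. As deposited, 35 of the 79 fell by more than 2-fold in both lines.

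Lists of genes describe the same comparison over groups of known function. Those of histone, aminoacyl-tRNA synthetase, chaperonin, translation factor and MHC class II genes were drawn up after the values had been seen, so they are shown as descriptions. No member of any list passed the test over 3 lines, so the counts given are of members on 1 side in all 3 lines, beside 4.99% higher and 30.7% lower over all genes, or 14.8% and 16.6% after TMM scaling. Of 35 genes of the unfolded protein and amino acid response past the filter, 26 were lower and 0 higher in WC in all 3 lines, with 21 lower after TMM scaling, and the median changes were -0.35 for RT-112, -0.33 for HT-1376 and -2.06 for CAL-29. In CAL-29 28 of the 35 were lower by more than 2-fold, against 32.0% of all genes, and 23 after TMM scaling, against 14.9%. HSPA5 measured 87.4 and 74.2 CPM in RT-112, 331 and 219 CPM in HT-1376 and 6795 and 406 CPM in CAL-29. ASNS, asparagine synthetase, a target of the factor ATF4, measured 7.88 and 4.58 CPM in RT-112, 21.7 and 8.33 CPM in HT-1376 and 152 and 39.5 CPM in CAL-29. The level of these genes in CAL-29 WA was far above that in WC, and the summed CPM of these genes was 4578 in WK, 27877 in WA and 7613 in WC, against 25713 in KK and 19265 in KA. HSPA5 in CAL-29 KK was 6321 CPM. The median CPM of the list in CAL-29 was 240.4 in KK, 262.6 in WA, 131.2 in KA, 55.9 in WK and 54.9 in WC. Within CAL-29, then, WA was like KK, and WC like WK, while KA lay between them. Fewer cells in such a state and a lower level per cell cannot be told apart in bulk RNA.

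The cytosolic aminoacyl-tRNA synthetases, which charge tRNAs with amino acids, lay on the same side. In 16 of 18 WC was lower than WA in all 3 lines (11 after TMM scaling), with medians of -0.39 for RT-112, -0.61 for HT-1376 and -1.57 for CAL-29, and HARS1 and VARS1 were the exceptions. SARS1 measured 29.9 and 14.8 CPM in RT-112, 129.9 and 76.7 CPM in HT-1376 and 276 and 123 CPM in CAL-29. WARS1, which also answers to interferon, measured 39.4 and 24.1 CPM in RT-112, 142 and 93.5 CPM in HT-1376 and 1253 and 195 CPM in CAL-29. Of 32 translation elongation and initiation factors 18 were lower in all 3 lines (11 after scaling), and of 8 chaperonin subunits, which fold actin and tubulin, 5 (3 after scaling). In CAL-29 the medians of both lists changed sign with the scaling, from -0.36 to 0.21 and from -0.22 to 0.36. CCT5 was at 19.7 and 15.6 CPM in RT-112, 243 and 56.8 CPM in HT-1376 and 147 and 112.29 CPM in CAL-29. Of the 59 cytosolic ribosomal protein genes 6 were higher and 13 lower in 3 lines, beside 4.99% and 30.7% of all genes. After TMM scaling 14 were higher and 5 lower, beside 14.8% and 16.6%. In CAL-29 their median was 0.22 as deposited, against -0.25 in HT-1376. That list thus stood on the other side in CAL-29.

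Genes of NRF2, the factor that drives antioxidant and detoxification genes, were lower in WC in 14 of 29 cases and higher in 0, with 9 after TMM scaling. Median changes were -0.34 for RT-112, -0.40 for HT-1376 and -0.49 for CAL-29, and after scaling CAL-29 went to 0.08. The glutathione synthesis genes GCLM (9.95 and 6.33 CPM in RT-112, 51.3 and 30.6 CPM in HT-1376 and 51.4 and 29.3 CPM in CAL-29) and GCLC were lower, and so was the cystine carrier SLC7A11, which ATF4 also drives. AKR1C1 measured 63.7 and 19.8 CPM in RT-112, 49.6 and 38.2 CPM in HT-1376 and 62.7 and 32.2 CPM in CAL-29. In RT-112 OSGIN1 and ALDH3A1, other NRF2-answering genes, were among the 5 furthest lower, OSGIN1 at 22.6 and 4.94 CPM and ALDH3A1 at 152 and 45.1 CPM. Against WK of RT-112, with 2.72 and 27.0 CPM, it was WA that stood high.

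Lists of squamous genes were furthest above 0 in CAL-29. Of 13 S100 genes 6 were higher in all 3 lines and 0 lower (7 after TMM scaling), with medians of 0.14 for RT-112, 0.76 for HT-1376 and 0.86 for CAL-29. S100A8, a subunit of the antimicrobial calprotectin, measured 1396 and 1541 CPM in RT-112, 10220.0 and 24439 CPM in HT-1376 and 1883 and 10430.0 CPM in CAL-29. Its partner S100A9 measured 5394 and 6738 CPM in RT-112, 9738 and 19507 CPM in HT-1376 and 1462 and 7129 CPM in CAL-29. Both were higher in WC in each line, least so in RT-112. Cornified envelope genes had a median of 1.69 in CAL-29 with 10 of 14 higher by more than 2-fold against 4.34% of genes, and of 0.00 and 0.32 in RT-112 and HT-1376. SPRR2A, a cornified envelope precursor, measured 0 and 0.24 CPM in RT-112, 31.6 and 67.9 CPM in HT-1376 and 1.15 and 9.45 CPM in CAL-29. Of 22 basal and squamous genes 9 were higher by more than 2-fold in CAL-29, where KRT5 stood at 36.5 and 156 CPM, KRT6A at 16.4 and 211 CPM and KRT16 at 2.40 and 22.5 CPM. Of the same 22, 8 were lower in CAL-29, 2 of them by more than 2-fold, and 15 were lower in HT-1376. DSG3, a desmosomal cadherin, was lower in HT-1376 and CAL-29, at 3.96 and 1.21 CPM and 31.1 and 8.83 CPM, and under the limit of 3 reads in RT-112. ITGB4 and LAMB3, of the hemidesmosome and its matrix, were lower in all 3 lines as deposited but not after TMM scaling. The WK library of CAL-29 held 2.49 CPM of KRT6A, so here both WA and WC stood above it.

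Of 17 luminal genes 6 were lower in WC by more than 2-fold in CAL-29, a share near that of all genes (32.0%), while after TMM scaling 1 was lower and 2 were higher by as much. GATA3, a factor of urothelial identity, measured 226 and 93.8 CPM there. PPARG, the nuclear receptor of urothelial differentiation, measured 33.1 and 10.7 CPM and FOXA1, a pioneer factor, 124 and 63.0 CPM. With KLF5 and ELF3, at changes of -1.57 and -1.43, these 5 factors were all lower in WC in CAL-29. In the other lines their changes lay between -0.45 and 0.40. These are deposited values, beside a median of -0.55 over all genes in CAL-29. Of the same 17 genes 4 were higher in WC in CAL-29, 2 of them by more than 2-fold. Over the 17 luminal genes the medians were -0.15 for RT-112, 0.00 for HT-1376 and -0.80 for CAL-29, the last being -0.23 after TMM scaling. Of 14 claudin and tight junction genes 10 were lower by more than 2-fold in CAL-29 (32.0% of all genes were), 4 after TMM scaling, and 5 were lower in all 3 lines (4 after scaling). OCLN, occludin, measured 2.85 and 2.17 CPM in RT-112, 5.69 and 3.51 CPM in HT-1376 and 27.6 and 4.44 CPM in CAL-29.

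Replication-dependent histone genes, which supply chromatin in S phase, were higher in WC in CAL-29. There 52 of 54 were higher by more than 2-fold, against 4.34% of genes, with a median of 2.11, while the medians in RT-112 and HT-1376 were 0.16 and -0.09. Their summed level in CAL-29 was 15008 CPM in KK, 19390.0 in KA, 49368 in WK, 14261 in WA and 58282 in WC. WC thus stood with WK and WA with KK, the reverse of the unfolded protein genes. Members of this family have near-identical copies, so how their reads were split is uncertain. The S-phase and mitosis genes were on the same side in CAL-29, with 18 of 41 higher by more than 2-fold, and a median of 0.88 against -0.51 in HT-1376. CCNB1, cyclin B1, measured 22.1 and 18.5 CPM in RT-112, 225 and 83.9 CPM in HT-1376 and 61.1 and 221 CPM in CAL-29, so its direction differed between HT-1376 and CAL-29.

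**Figure D4:**
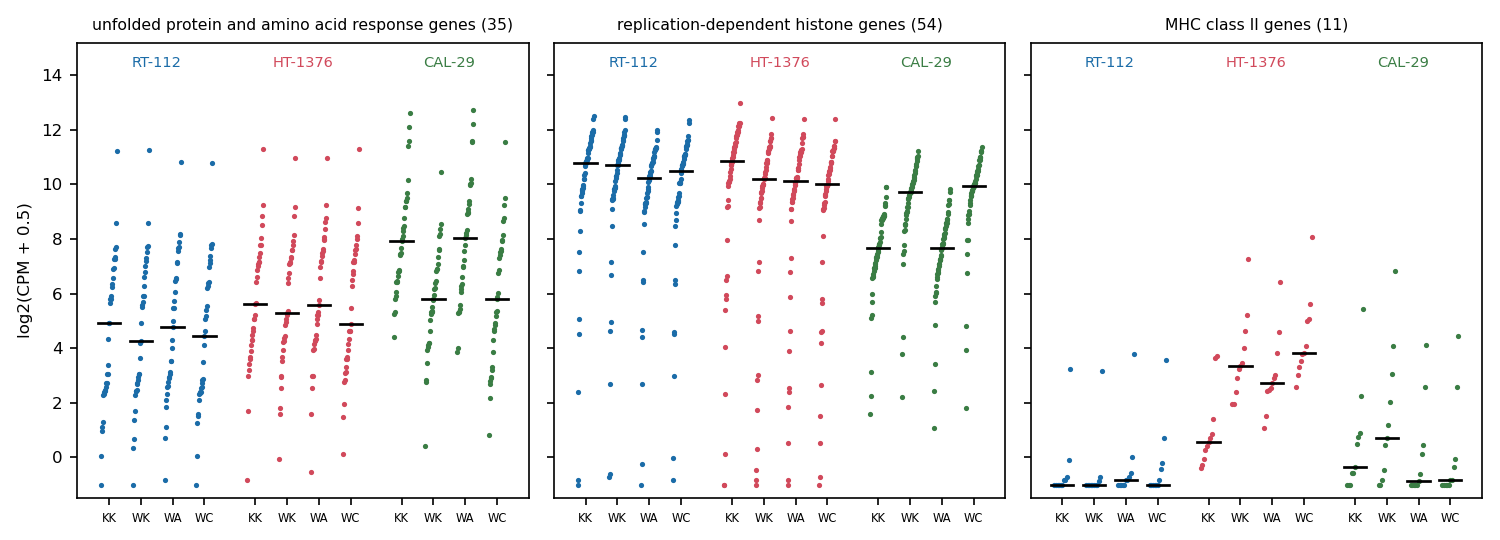
Level, as log2(CPM + 0.5), of each member of 3 gene lists in the KK, WK, WA and WC libraries of the 3 lines, 1 dot per gene, ordered by level in each column, and a bar at the median. In CAL-29 the unfolded protein genes are high in KK and WA and lower in WK and WC, the histone genes show the reverse, and MHC class II genes are highest in HT-1376.

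MHC class II genes, which present antigen, were highest in HT-1376. There 11 of 11 were higher in WC and 9 by more than 2-fold, against 3.78% of genes, with CD74 at 86.3 and 268 CPM and HLA-DRB5 at 6.20 and 31.3 CPM. Their summed level was 163 CPM in WA, 459 in WC, 278 in WK and 32.8 in KK. In RT-112 and CAL-29 the list held a median change of 0.00, since most members stood at or near 0. Among 39 interferon-stimulated genes the medians were -0.02 for RT-112, 0.42 for HT-1376 and -0.55 for CAL-29, and after TMM scaling that of CAL-29 was 0.02. UBD, a ubiquitin-like protein of the same programme, stood at 17.3 and 228 CPM in HT-1376 and 8.95 and 9.73 CPM in CAL-29.

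The AP-1 and immediate early genes had 8 of 25 lower in all 3 lines and 0 higher (6 and 1 after TMM scaling), a share near the 30.7% of all genes, and EGR1, an immediate early factor, measured 5.59 and 5.24 CPM in RT-112, 74.6 and 31.8 CPM in HT-1376 and 545 and 129 CPM in CAL-29. Of 29 p53 target genes 10 were lower and 3 higher, again near that share, and 8 and 6 after TMM scaling, with a median in CAL-29 of -1.11 as deposited and -0.54 after scaling. GADD45A, a growth arrest gene, measured 39.4 and 29.1 CPM in RT-112, 162 and 96.1 CPM in HT-1376 and 202 and 56.5 CPM in CAL-29. Of 33 cholesterol and fatty acid synthesis genes 12 were higher by more than 2-fold in CAL-29, against 4.34% of genes, and 17 after TMM scaling, against 11.4%. Their median was 0.53 in CAL-29, -0.39 in RT-112 and -0.37 in HT-1376. EBP, a sterol isomerase, stood at 34.3 and 175 CPM in CAL-29, and SCD, stearoyl-CoA desaturase, at 44.2 and 10.8 CPM in RT-112.

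**Figure D5:**
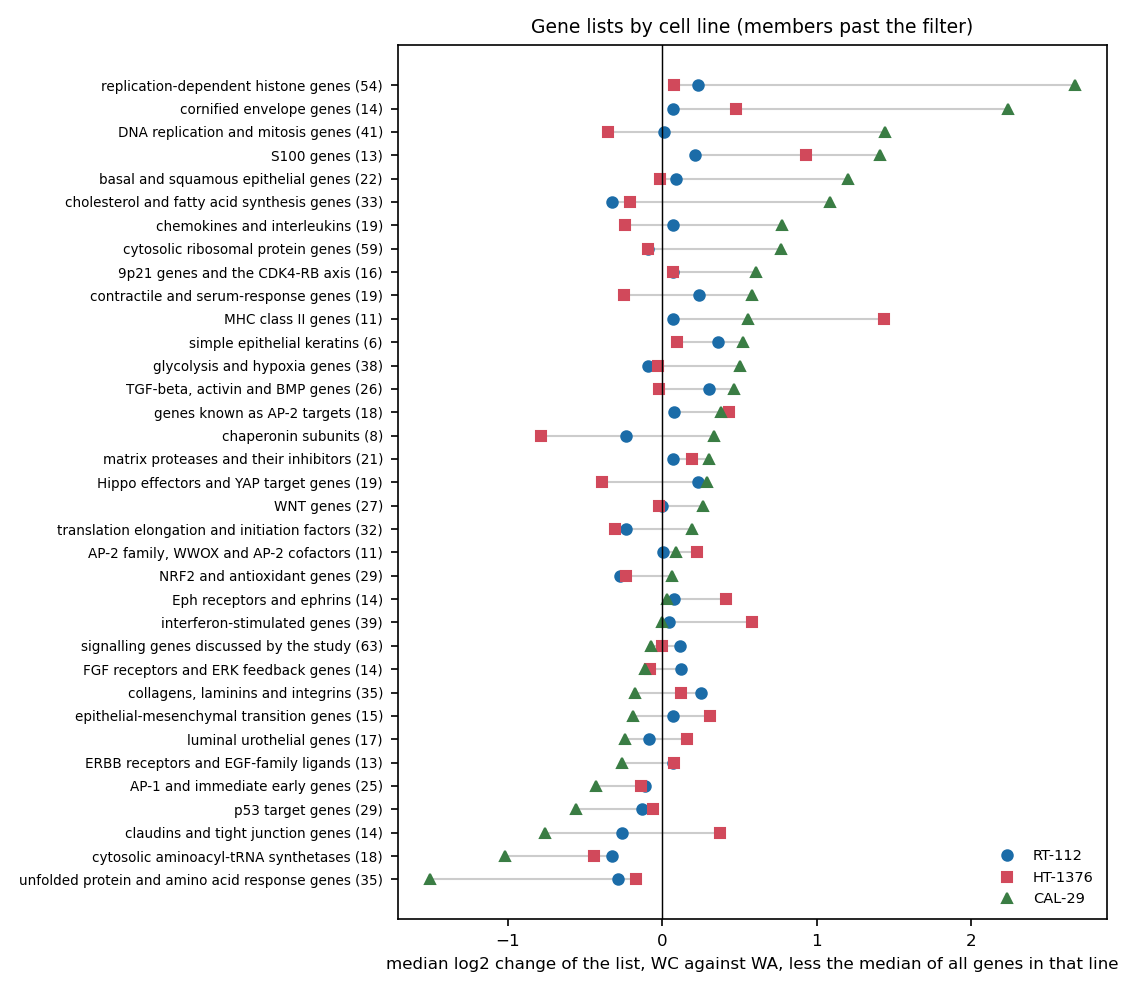
Median change (log2, WC minus WA) of the members of each gene list in RT-112, HT-1376 and CAL-29, less the median over all genes of the same line. CAL-29 has the largest departures, with histone and cornified envelope genes high and the unfolded protein response and aminoacyl-tRNA synthetase genes low.

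Genes known as AP-2 targets stood on both sides. Of 18 past the filter 2 were higher and 0 lower in WC in all 3 lines (4 and 0 after TMM scaling), MMP9 and IGFBP5. In RT-112 MMP9 stood at 0 and 0.06 CPM, under the limit of 3 reads, so its side there is not known. ERBB2, a receptor kinase, measured 192 and 200.3 CPM in RT-112, 49.9 and 81.0 CPM in HT-1376 and 122 and 77.4 CPM in CAL-29. EGFR, of the same family, measured 39.2 and 48.9 CPM in RT-112, 84.6 and 79.8 CPM in HT-1376 and 280.2 and 109 CPM in CAL-29. CDH1, E-cadherin, measured 96.8 and 91.8 CPM in RT-112, 87.2 and 96.5 CPM in HT-1376 and 708 and 272 CPM in CAL-29. For each, CAL-29 was lower in WC as deposited, and HT-1376 differed little or was higher. The median change of all genes in CAL-29 was -0.55, and ERBB2 fell by little more than that. Of the 63 signalling genes that the study discusses, 1 was higher and 9 were lower in all 3 lines (6 and 4 after scaling). This list was chosen by the study on these samples and is no independent evidence. L1CAM, a neural adhesion molecule, measured 12.7 and 27.9 CPM in RT-112, 29.01 and 61.7 CPM in HT-1376 and 79.8 and 17.99 CPM in CAL-29, and CTNNB1, β-catenin, 167 and 39.8 CPM in HT-1376 and 97.1 and 100.1 CPM in CAL-29. The gene counted as higher was MMP9, whose side in RT-112 is not known.

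The genes furthest apart within a line differed from line to line. In RT-112 the gene furthest apart has no symbol in the table (ENSG00000275895), at 47.3 and 3.44 CPM in WA and WC, beside 5.94 in WK and 3.71 in KK. OSGIN1, SCD, ALDH3A1 and AKR1C1 followed among those lower in WC, with changes of -2.09, -1.98, -1.74 and -1.66. Furthest on the other side in that line were FN1 and the actin-binding TAGLN (34.4 and 97.7 CPM), higher in WC, with PLA2G2A, C15orf48 and L1CAM. With TAGLN, the summed level of the smooth muscle markers in RT-112 was 37.3 CPM in WA and 100.2 in WC, in which ACTA2 stood at 2.85 and 2.53 CPM. In HT-1376 MAGEB2, a cancer-testis antigen gene, went from 0.38 to 25.8 CPM, HSD17B1, which makes oestradiol, from 1.73 to 25.6, and EBI3, a cytokine subunit, from 1.41 to 22.4. The chemokine CCL2 (121 and 14.7 CPM), CCNJL (46.3 and 7.40 CPM) and the matrix protein THBS1 (47.7 and 8.82 CPM) were lower. In CAL-29 KRT1 stood at 3.16 and 91.8 CPM and FST, follistatin, at 2.29 and 43.1 CPM. BHLHA15, a factor of secretory cells, and DERL3, of endoplasmic-reticulum degradation, were lower, at 25.2 and 0.22 CPM and 34.96 and 1.41 CPM, as was KLHDC7B (84.5 and 1.29 CPM). Together in HT-1376 and CAL-29, 45 genes were higher (0.363%) and 241 lower (1.94%) by more than 2-fold, and 146 (1.18%) went opposite ways.

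The same contrast without WWOX, KC against KA, shares no library with WC against WA, and could be read in RT-112 and HT-1376. TFAP2C measured 49.4 and 264 CPM in KA and KC of RT-112 and 172 and 214 CPM in those of HT-1376, so there RT-112 carried it as labelled. TFAP2A measured 46.8 and 19.0 CPM in KA and KC of RT-112, and 101 and 56.0 in those of HT-1376, higher in KA in both. Over genes, Pearson's r between the contrasts was 0.034 for RT-112 and 0.124 for HT-1376. Of the 15 genes named higher in WC, 8 were also higher in KC in RT-112 and 13 in HT-1376, and of the 15 named lower, 4 and 10. Of the genes beyond 2-fold in RT-112, 29 of 40 higher and 42 of 85 lower had the same direction in KC against KA, and in HT-1376 279 of 468 and 341 of 643. Over all 12393 genes 64.3% were higher and 32.7% lower in KC in RT-112, and 36.0% and 63.0% in HT-1376, which are the shares to set beside these counts. S100A7 stood at 13.5 and 3.05 CPM in KA and KC of RT-112, the opposite of WC against WA, and at 360.4 and 1334 in HT-1376, the same. The difference between the contrasts was tested by limma on the 11565 genes past the filter, and 0 passed, with 154 genes (1.33%) at an unadjusted p under 0.05.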

How the data were processed

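CAGE libraries of 3 bladder cancer lines in 6 variants, 18 in all, were used as deposited. The authors sequenced 75 nt single-end reads, aligned them to hg38 with BWA, then those still unmapped with HISAT2 2.0.5 (version from the submitters' processing notes), and deposited 1 CPM value per gene and library, scaled to a library total larger than the table. How start sites were assigned to genes, and whether reads of a transgene count, is not given in the sources used here. In the 6 libraries compared, 99.96% to 99.98% of the values were whole multiples of 1 read within 0.005 CPM, and 3 reads set the limit for a gene at 0. Such limits cover counting error only.

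Genes with at least 5 CPM in 1 or more of the 6 libraries were kept (12393 of 16575, of which 381 share all their values with another gene). WC was tested against WA by limma 3.58.1 (R 4.3.3) on log2(CPM + 0.5) with a trended variance, the cell line as a block and Benjamini-Hochberg adjustment at 0.05. The pairing comes from the cell line named in each label. The p-values rest on the spread between lines, moderated by a variance shared over genes, with no replicate within a line. In the fit of HT-1376 and CAL-29 alone the shared variance dominates. Its SE and p-values therefore do not measure how far those 2 lines differ. Alternatives were other pseudocounts, filters, TMM and quantile scaling, fits without the block or over more libraries, leaving out each line, and edgeR 4.0.16, DESeq2 1.42.0 and limma-voom on the recovered reads. Fits were tested on simulated data in which each planted change was the same in all 3 lines. That test does not measure error rates where the lines differ, as they did here. Fits without RT-112 under another scaling or tool were added after the data had been seen. Tables were made with Python 3.11.15, pandas 2.3.3, NumPy 2.4.6 and SciPy 1.17.1, and plots with matplotlib 3.10.9.

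Genes were named by these rules. Members of the AP-2 list came first, then up to 12 genes per direction past the test. Up to 15 per direction followed with the largest smallest-of-3-lines change, in the same direction before and after TMM scaling and with at least 5 CPM in the higher library of each pair. Up to 5 per direction and line had the largest change at 20 CPM or more. From each list up to 4 per direction were eligible, with members whose lines disagreed by more than 2-fold, and the signalling genes of the study. Genes from the fit without RT-112, and examples outside these rules, were chosen after their values were seen. The members and lists were chosen with earlier results of these data known. Gene positions are from GENCODE 44 and promoters from RefSeq. The library labelled CAL-29 KC was left out of the comparison with KC and KA, and a check of GC content was void because 77.5% of genes had a value.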

Additional observations from a re-analysis of the deposited data

Results flagged for a closer look

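For 3 of the named genes WC lay above WA by more than 4-fold in 1 line and below it by as much in another, and for 2 lists the medians lay beyond 0.3 on either side, before and after TMM scaling. Further genes and lists had opposite signs without reaching these limits. There is 1 library per variant and line, so the difference between lines was not tested for any of them.

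CCL2, a chemokine that attracts monocytes, had a change of 2.85 in CAL-29 (25.9 and 189.9 CPM in WA and WC) and of -2.999 in HT-1376 (121 and 14.7 CPM). THBS1, thrombospondin 1 of the extracellular matrix, had 2.73 in CAL-29 (24.4 and 165 CPM) and -2.37 in HT-1376 (47.7 and 8.82 CPM). The tight junction scaffold TJP3 went the other way, with 2.24 in HT-1376 (2.36 and 12.98 CPM) and -2.26 in CAL-29 (42.0 and 8.38 CPM). These genes passed the test in none of the limma fits over 3 lines.

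The median change of the 41 DNA replication and mitosis genes was 0.88 in CAL-29 and -0.51 in HT-1376. That of the 33 cholesterol and fatty acid synthesis genes was 0.53 in CAL-29 and -0.39 in RT-112. Both contrasts of sign held after TMM scaling, at 1.46 and -0.35 for the first list and 1.11 and -0.33 for the second.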

How the results depend on the processing

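The count of 0 genes between WC and WA was the same with pseudocounts of 0.05 and 2 CPM, either filter, TMM or quantile scaling, limma-voom, edgeR and the fits over 17 or 18 libraries, while DESeq2 called 11. Leaving out each line gave 0 to 103, with 103 without RT-112 and 0 without HT-1376 or CAL-29. Without RT-112 the count was 7 after TMM scaling, 27 by limma-voom, 9 by edgeR, 32 by DESeq2 and 0 after quantile normalization. Without the replicate block that pairs the libraries by cell line the count was 0, with 6 genes at an unadjusted p under 0.05 against 902 with it, and the difference between WC/WA and KC/KA was also called for 0 genes without the block. The block changed no other call.

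The 5 genes beyond 2-fold in 1 direction in all lines became 32 with a pseudocount of 0.05 CPM, 2 with 2 CPM, 8 after TMM scaling and 160 at 1.5-fold. Leaving out a line raised them to between 21 and 286, the latter without RT-112. In RT-112 the 125 genes beyond 2-fold became 544 and 45 with the lower and the higher pseudocount, and in HT-1376 the 1111 became 669 with the higher one. Of 1239 alternative values for mean changes of named genes 1205 kept their direction and side, 27 passed the threshold without RT-112, and 7 changed sign. These were CDKN1B (0.12 after TMM and 0.12 after quantile scaling), ITGB4 (0.098 after TMM), KRT8 (0.19 after TMM), ELK1 (0.12 after TMM and 0.25 after quantile scaling) and CXCL3 (0.086 after quantile scaling). Of 245 list medians 20 moved by more than the spread between lines. The cause was not tested for any of these.

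Each change within a line rests on 1 library per variant, so its error is unknown. The RT-112 WA library carries TFAP2C, and in CAL-29 the median change over all genes was -0.55 as deposited. At 3 reads a gene could be seen down to 0.164 to 0.192 CPM, and smaller levels were not detectable at this depth.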

Other observations

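The counts of lists not yet described are to be read beside 4.99% of genes higher and 30.7% lower in 3 of 3 lines, or 14.8% and 16.6% for the counts after TMM scaling, and no member of these lists passed the limma test over 3 lines. Of 13 ERBB receptor and EGF-family ligand genes 1 was higher and 3 were lower in all 3 lines, also after TMM scaling. The ligand AREG, amphiregulin, measured 8.83 and 6.69 CPM in RT-112, 381 and 280.4 CPM in HT-1376 and 222 and 132 CPM in CAL-29 in WA and WC. The related ligand EPGN measured 0.11 and 0.06 CPM in RT-112, 37.6 and 13.04 CPM in HT-1376 and 4.69 and 1.18 CPM in CAL-29. Of 35 collagen, laminin and integrin genes 4 were higher and 5 lower (7 and 2 after scaling). LAMA5, a laminin chain of basement membranes, measured 482 and 465 CPM in RT-112, 304 and 242 CPM in HT-1376 and 703 and 198 CPM in CAL-29, and ITGA5, the fibronectin receptor subunit, measured 20.4 and 27.1 CPM in RT-112, 37.8 and 149 CPM in HT-1376 and 68.1 and 74.0 CPM in CAL-29. Of 26 TGF-beta, activin and BMP genes 4 were higher and 5 lower (5 and 3 after scaling), with GDF15, a stress-induced cytokine, at 47.7 and 20.1 CPM in RT-112, 94.6 and 227 CPM in HT-1376 and 129 and 10.5 CPM in CAL-29, so HT-1376 was opposite to the other lines. Of 27 WNT genes 2 were higher and 6 lower (3 and 3 after scaling), of 38 glycolysis and hypoxia genes 2 and 6 (3 and 2), and of 19 chemokine and interleukin genes 2 and 4 (3 and 3). IL1A, interleukin 1 alpha, measured 1.90 and 1.02 CPM in RT-112, 23.6 and 11.1 CPM in HT-1376 and 12.6 and 5.79 CPM in CAL-29, lower in WC in each line.

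Of 15 epithelial-mesenchymal transition genes 1 was higher and 2 were lower (1 and 1 after scaling). EPCAM, an epithelial adhesion molecule, measured 49.6 and 29.9 CPM in RT-112, 38.3 and 20.9 CPM in HT-1376 and 194 and 116 CPM in CAL-29, a mean change of -0.78 ± 0.21 (SE). VIM, ZEB1 and ZEB2 were not among the genes past the filter. Of 6 simple epithelial keratins 2 were higher and 1 lower (3 and 0), of 14 Eph receptors and ephrins 1 and 1 (3 and 0), of 14 FGF receptor and ERK feedback genes 0 and 3 (1 and 3), of 19 Hippo genes 1 and 1 (2 and 0), of 21 matrix proteases and inhibitors 1 and 2 (4 and 2), and of 19 contractile genes, a list drawn up after the values had been seen, 0 and 3 (1 and 2). Among 16 genes of the 9p21 region and the CDK4-RB axis 3 were higher and 2 lower (4 and 0). CDKN2A, the cell cycle inhibitor of that region, measured 0 and 0 CPM in RT-112, 513 and 418 CPM in HT-1376 and 0.22 and 0.34 CPM in CAL-29. Its neighbour MTAP was listed at 0 in both variants of RT-112 and CAL-29 and at 13.2 and 6.74 CPM in HT-1376.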
